A study of Paeonia lactiflora with 8 samples.

Results

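Root was set against flower in Paeonia lactiflora, the herbaceous peony, with RNA measured in 2 root libraries and 2 flower libraries out of 8 libraries of 4 tissues. The members are the columns of root replicates 1 and 2 and of flower replicates 1 and 2, found by their names, and the model was fitted over all 8 libraries with tissue as its only term. Roots and flowers were both taken at the blossom period, as was leaf, while fruit came from the young fruit period, and the labels describe 2 biological replicates for each tissue. Neither the cultivar, the age of the plants, the organs of the flower that were sampled nor any pooling of plants is stated in the sources used here. The series was built around tissues that differ in paeoniflorin, the monoterpene glycoside of peony root, and root against flower asks which transcripts separate the storage organ from the open flower. Every sample is a whole tissue, so fewer cells of a type and less RNA per cell cannot be told apart.

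A perennial peony root imports sucrose made in the leaves, stores part of it as starch, takes up water and minerals and lives in contact with soil microbes. Sucrose synthase and invertases cleave the imported sugar, ADP-glucose pyrophosphorylase and starch synthases build starch from it, and amylases and a phosphorylase take starch apart again. A flower opens by the expansion of petal cells, which needs water channels, wall-loosening proteins and osmotically active sugars, and its epidermis is covered by cutin and wax. Floral organs are specified by MADS-box factors, a family of DNA-binding regulators.

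The estimated counts summed to 44392652 and 40901054 in the root libraries and to 39758080 and 30399492 in the flower libraries. IDs with the symbol TAR1-A, which stands for antisense transcripts of ribosomal RNA, held 9.67% and 18.9% of the counts in root and 5.86% and 41.4% in flower, so flower replicate 2 had the fewest counts on other genes. TMM factors, which put the libraries on one scale, were 1.11 and 1.43 in root and 0.763 and 0.582 in flower. Petal and stamen MADS genes, 3 IDs that all passed as lower in root, summed to 0.304 and 0.957 CPM in root and 1479.7 and 1088 CPM in flower. Root markers gave no such contrast. Of 17 tested IDs with a root marker symbol, AGL12 passed as higher (10.9 and 16 CPM in root, 3.95 and 2.37 CPM in flower), no other passed, and the list summed to 52.4 and 58.7 CPM in root and 159 and 246 CPM in flower. The radial patterning regulator SCR (comp13612_c0) was at 0 and 0.478 CPM in root and 20.8 and 22.5 CPM in flower. Green tissue markers summed to 21.7 and 142 CPM in root and 1159 and 1469 CPM in flower. Levels below are CPM, counts after TMM scaling to one library size, with replicate 1 before replicate 2. They are not corrected for length, so they compare libraries and not genes. A value after ± is a standard error of the log2 fold change, taken as its size divided by the square root of the edgeR F statistic. That statistic comes from the fit over all 8 libraries, with n = 2 per tissue.

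Root and flower differed in 5744 of 27939 genes tested. A gene passed with an edgeR adjusted p under 0.05 and a log2 fold change of 1 or more in size. By this rule 2624 genes were higher in root (9.39%) while 3120 were lower (11.2%), 20.6% in all. Their root and flower libraries did not overlap in any case, which was true of 63% of all genes tested. Among the higher genes 553 had no count in either flower library, and among the lower ones 373 had none in either root library. Abundant transcripts lay more often on the flower side. Means of 1000 CPM or more in the tissue with the higher level occurred in 23 higher genes and 94 lower genes, and means of 100 CPM or more in 283 higher genes and 845 lower genes. The balance depends on the scale. Calls were 45.7% higher in root with TMM, but 77.6% with scaling to total counts (5292 higher and 1525 lower), 70.6% with totals that leave out the 20 most abundant genes, and 76.4% with limma on log2(TPM + 1). The median log2 fold change of all genes tested was 0.17 with TMM and 1.10, 0.83 and 0.79 on those 3 scales, and list medians are to be read against 0.17.

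The fold changes also followed the length of the assembled transcript. Among genes with a mean of at least 5 CPM, the shortest of 10 length bins (202 to 613 bases) had a median log2 fold change of -0.98, and the longest bin (2386 to 7928 bases) had one of 0.74. The share higher in root was 9.18% in the shortest bin and 26.2% in the longest, and the share lower was 31.1% and 7.88%. Both flower libraries had short transcripts high and long ones low relative to the mean of the 8 libraries, and both root libraries had the reverse. In a fit with each library's length trend removed, an alternative chosen after seeing the data, the medians were -0.11 and 0.05, with 3312 genes higher in root and 2479 lower (57.2% higher), and 4691 of the 5744 genes that passed with TMM passed again. The cause of the trend was not tested. For each group of genes below, brackets give the numbers higher and lower in root with total counts as the scale and without the length trend. Over all genes tested these numbers were 5292 and 1525, and 3312 and 2479. Where a direction below is said to turn or even out, this refers to the counts alone. It does not say that the group moved relative to all genes tested.

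**Figure D1:**
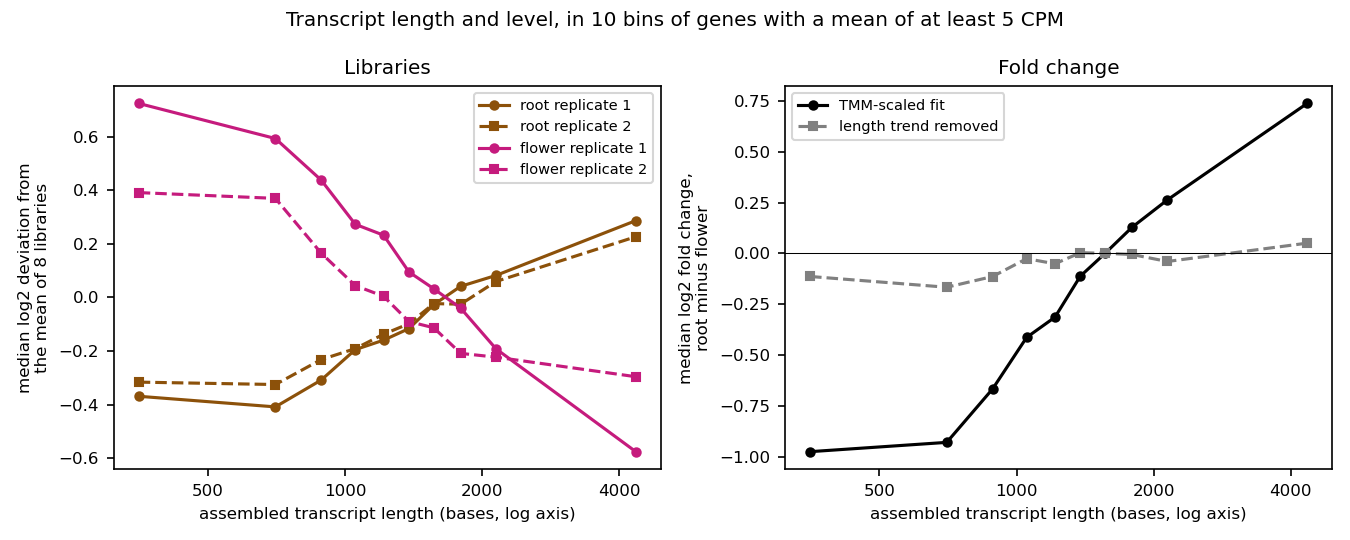
Left, the median log2 deviation of each root and flower library from the mean of the 8 libraries in 10 bins of transcript length (bases, log axis); right, the median log2 fold change of root minus flower per bin with TMM scaling (solid) and with the length trend removed (dashed). Both root lines end above their start and both flower lines end below theirs, and the solid line on the right runs from -0.98 in the shortest bin to 0.74 in the longest.

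Leaving out a library left 3 residual degrees of freedom and fewer calls. Without root replicate 1, root replicate 2, flower replicate 1 or flower replicate 2, in this order throughout, 1052, 1340, 486 and 878 genes were higher in root and 1284, 1630, 969 and 1493 were lower. Without leaf replicate 1 or 2, 1306 and 1333 were higher and 1921 and 1844 lower. Counts for single lists with one library left out are given in the same order.

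By KOG class, a scheme that sorts proteins into broad functions, genes of the nucleus, RNA processing and DNA that passed were more often higher in root, and those of energy metabolism more often lower. Of nuclear structure genes, 20 of 81 tested genes passed as higher in root and 0 as lower. RNA processing had 102 of 617 higher and 27 lower, replication and repair 63 of 397 higher and 15 lower, and chromatin 41 of 259 higher and 11 lower. In secondary metabolism 101 of 508 were higher and 60 lower. In the fits with one library left out all 5 of these classes had fewer calls. Counts for the last 3 follow here, and those for nuclear structure and RNA processing are given further below. Secondary metabolism had 72, 74, 27 and 51 higher against 26, 33, 22 and 37 lower. Replication and repair had 7, 19, 5 and 20 higher against 7, 9, 5 and 8 lower, and chromatin had 10, 16, 3 and 15 higher against 5, 4, 4 and 6 lower. Replication and repair thus had as many higher as lower genes without root replicate 1 and without flower replicate 1, and chromatin had fewer higher than lower genes without flower replicate 1. In these 5 classes more genes were higher than lower both with total-count scaling and with the length trend removed. That was also true of all genes tested, where 77.6% and 57.2% of calls were higher, so it is not particular to these classes. Energy production had 42 of 536 higher and 109 lower (78 and 36 with total counts, 52 and 85 without the length trend, so that its counts turned with total counts). On that scale its median log2 fold change relative to all genes tested was still -0.77. After omission of one library, 26, 27, 5 and 12 were higher and 50, 59, 36 and 58 lower. Coenzyme metabolism had 5 of 140 higher and 22 lower, and its counts likewise turned with total-count scaling (21 and 8 with total counts, 14 and 19 without the length trend). Its median relative to all genes tested was -0.28 with total counts. The fits with one library left out gave 0, 5, 1 and 0 higher and 10, 9, 10 and 12 lower. Among coenzyme genes METK2 (comp18566_c0), an S-adenosylmethionine synthetase that makes the cell's methyl donor, was at 61.6 and 30.7 CPM in root and 3428 and 1565 CPM in flower (log2 fold change -5.76 ± 0.68, edgeR adjusted p = 0.00488).

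**Figure D2:**
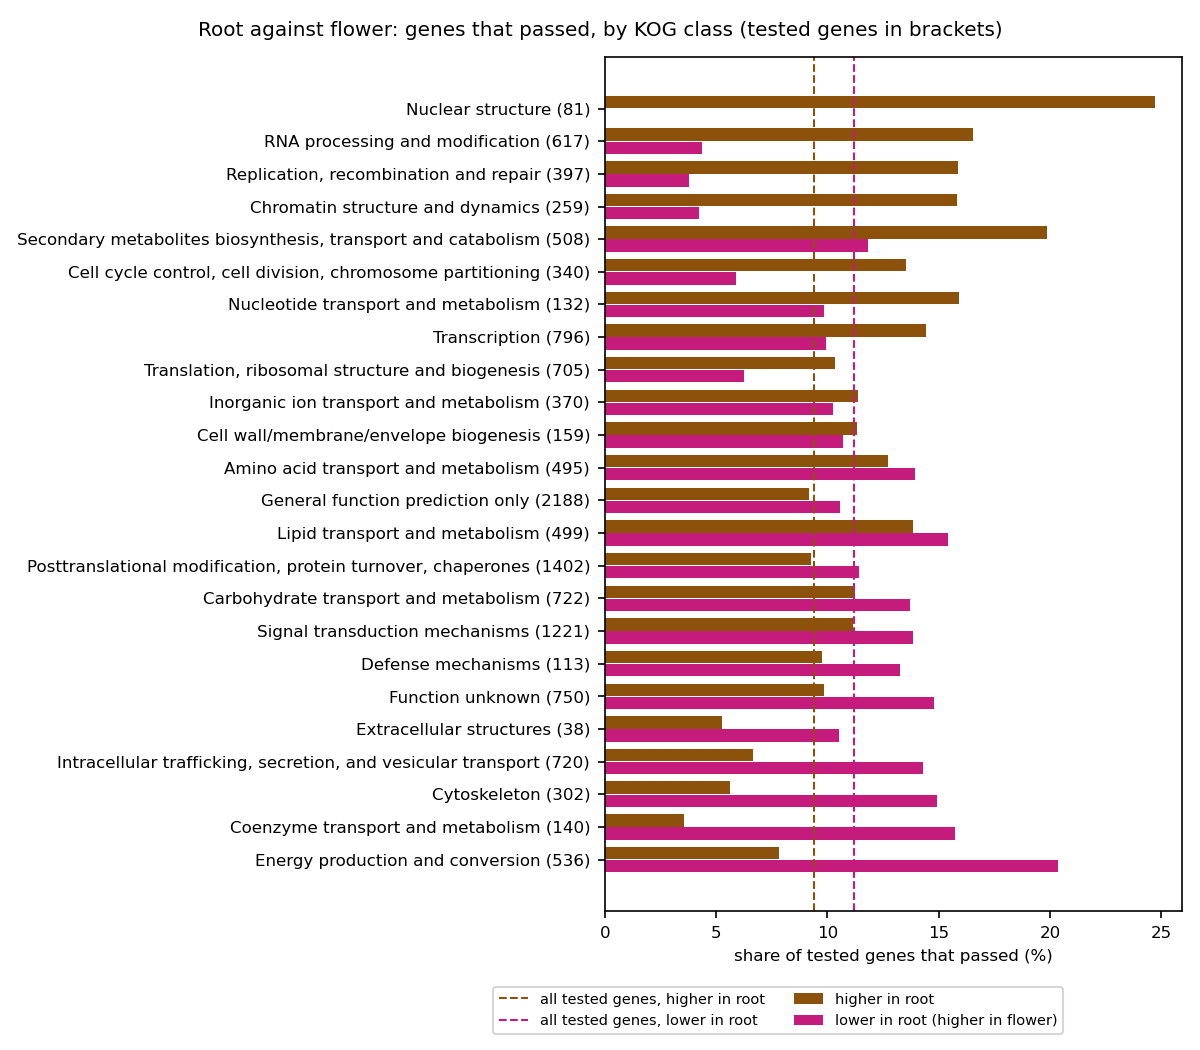
Share of tested genes (%) that passed as higher (brown) or lower (pink) in root for each KOG class with at least 20 tested genes, with the number tested in brackets; dashed lines mark the shares over all genes tested, 9.39% higher and 11.2% lower. Nuclear structure, with 24.7% higher and none lower, stands at the top and energy production, with 20.3% lower, at the bottom.

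The most abundant transcripts of root that passed included those of fermentation, sugar, stress and defence proteins. ADH2 (comp18825_c1), an alcohol dehydrogenase that reduces acetaldehyde to ethanol, was at 31228 and 6404 CPM in root and 80.7 and 33.3 CPM in flower (log2 fold change 8.37 ± 1.27, edgeR adjusted p = 0.00882). STH-2 (comp21148_c0), named for a pathogenesis-related protein of potato, was at 6519 and 931 CPM in root and 15.2 and 1.75 CPM in flower (log2 fold change 8.77 ± 1.73, edgeR adjusted p = 0.0179). TPRP-F1 (comp11260_c0), named for a proline-rich wall protein of tomato, was at 6599 and 542 CPM in root and 1.05 and 1.07 CPM in flower (log2 fold change 11.71 ± 1.82, edgeR adjusted p = 0.00937). In each of these genes both root libraries lay far above both flower libraries, but root replicate 1 was several times above root replicate 2. The same order of the root libraries held for all 10 of the most abundant higher genes, while over all 2624 higher genes 1477 had replicate 1 above replicate 2 and 200 (7.62%) had it more than 3 times above. FDH1 (comp5679_c0), formate dehydrogenase and not one of these 10, had the other order at 2012 and 2555 CPM in root and 173 and 104 CPM in flower (log2 fold change 4.04 ± 0.51, edgeR adjusted p = 0.00564).

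The most abundant transcripts on the flower side included those of cell expansion. XTH6 (comp22888_c1) and XTHB (comp21386_c0), xyloglucan endotransglucosylases that rejoin wall polymers, were at 12 and 35.4 CPM and 39.96 and 19 CPM in root and at 11893 and 5527 CPM and 5208 and 2991 CPM in flower (log2 fold changes -8.52 ± 1.27 and -7.12 ± 0.88). EXPA8 (comp23434_c0), an expansin that loosens walls, was at 369 and 258 CPM in root and 4162 and 2985 CPM in flower (log2 fold change -3.51 ± 0.90, edgeR adjusted p = 0.0372). FAD2-2 (comp21657_c0), an oleate desaturase, was at 132 and 114 CPM in root and 3795 and 3923 CPM in flower (log2 fold change -4.97 ± 0.58, edgeR adjusted p = 0.00470). All of these were well above root in both flower libraries. The highest on the flower side was comp15606_c0, whose symbol PERK10 (a receptor-like kinase) and description (an elongation factor) do not match, at 0.587 and 0.273 CPM in root and 8431 and 15996 CPM in flower (log2 fold change -14.79 ± 2.52, edgeR adjusted p = 0.0118). In the genes of this group the replicates of a tissue differed by less than 3-fold.

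**Figure D3:**
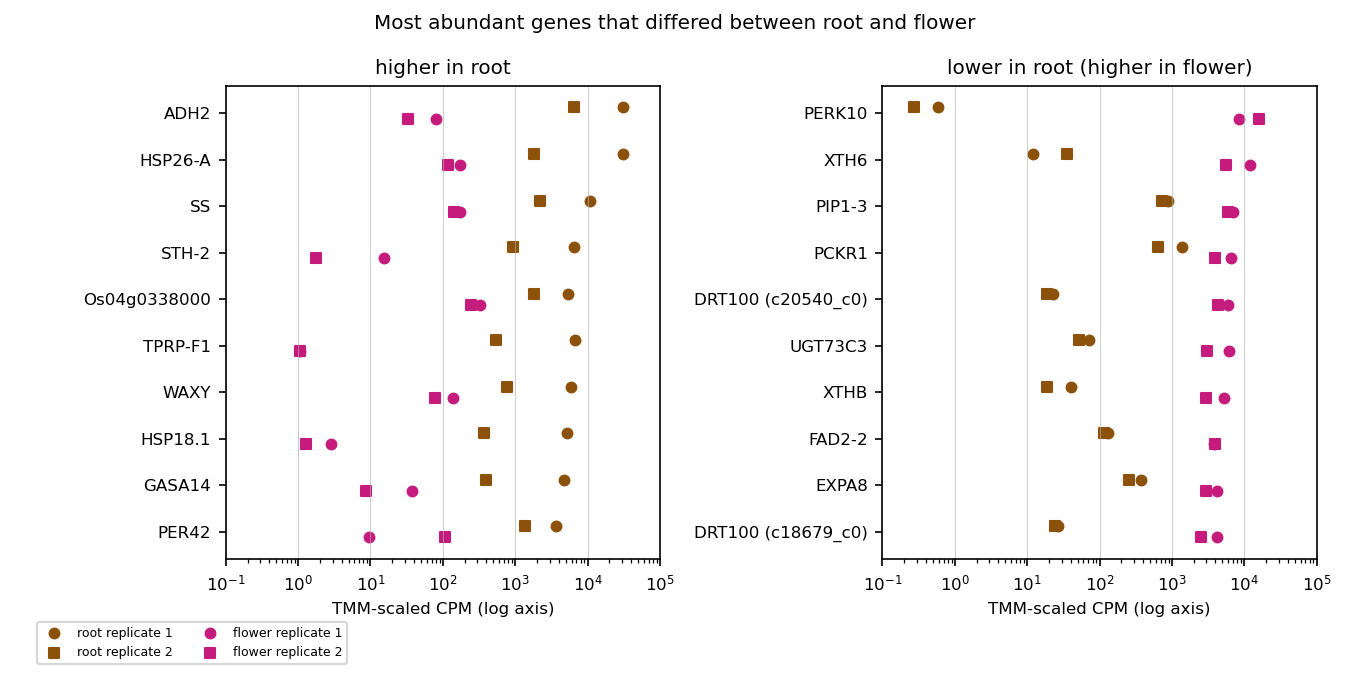
TMM-scaled CPM (log axis) of the 10 most abundant genes that passed as higher in root (left) and the 10 that passed as lower (right), among those with a log2 fold change of 2 or more in size; one point per library, brown for root and pink for flower, circles for replicate 1 and squares for replicate 2. Root and flower points do not overlap for any gene, and on the left root replicate 1 lies above root replicate 2 for every gene.

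Among genes with the largest fold changes, several had no count in one tissue. The germin-like protein GLP6 (comp16258_c0) was at 63.9 and 183 CPM in root and 0 in both flower libraries (at least 2056-fold higher in root, edgeR adjusted p = 0.00666). ESC (comp8064_c0) and ESC (comp4801_c0), which share the symbol of an AT-hook DNA-binding protein, were at 86.6 and 55.8 CPM and 77.3 and 39.2 CPM in root and 0 in flower (at least 1119-fold higher in root and at least 908-fold higher in root). LAR (comp6581_c0), leucoanthocyanidin reductase of proanthocyanidin synthesis, was at 167 and 11.7 CPM in root and 0 in flower (at least 1327-fold higher in root, edgeR adjusted p = 0.0194). These root genes had no count at all in flower. On the flower side MYB305 (comp14131_c0), a MYB factor known from Antirrhinum flowers, was at 0 and 0.0171 CPM in root and 1415 and 943 CPM in flower (a flower-to-root ratio of 134000.0, with a counting interval of 24049 to 5292790.0, edgeR adjusted p = 0.00205). SHT (comp20955_c0), a spermidine hydroxycinnamoyl transferase, was at 0 in root and 128 and 138 CPM in flower (at least 4727-fold lower in root, edgeR adjusted p = 0.00754). FBP1 (comp12071_c0), the petunia name of a petal and stamen MADS factor, was at 0 in root and 171 and 219 CPM in flower (at least 6784-fold lower in root, edgeR adjusted p = 0.00396), and leaf and fruit libraries were at 0 too. Replicates of the expressing tissue were close for the AT-hook genes and for FBP1, and far apart for LAR.

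The named starch synthesis genes were high in root and several starch-degrading enzymes were high in flower. In the starch list, 14 of 46 tested genes passed as higher in root and 7 as lower (median log2 fold change 1.06; 19 and 5 with total counts, 14 and 7 without the length trend). WAXY (comp22920_c0), the granule-bound starch synthase that makes amylose, was at 5876 and 766 CPM in root and 139 and 79 CPM in flower (log2 fold change 4.93 ± 1.05, edgeR adjusted p = 0.0220). SBE1 (comp7839_c0), a starch-branching enzyme, was at 2529 and 403 CPM in root and 63.2 and 85 CPM in flower (log2 fold change 4.31 ± 0.90, edgeR adjusted p = 0.0212). AGPP (comp21389_c0), ADP-glucose pyrophosphorylase, the enzyme that commits glucose to starch, was at 2001 and 509.8 CPM in root and 99 and 67.1 CPM in flower (log2 fold change 3.92 ± 0.72, edgeR adjusted p = 0.0149). All 3 were far higher in both root libraries, with root replicate 1 the highest. PHO1 (comp19613_c0), here a starch phosphorylase, showed a wider gap than these 3, with 1197 and 158 CPM in root and 2.47 and 2.60 CPM in flower (log2 fold change 8.06 ± 1.10, edgeR adjusted p = 0.00687). GPT2 (comp22586_c0), a carrier that brings glucose 6-phosphate into plastids, was at 350.0 and 60.9 CPM in root and 0 and 0.0565 CPM in flower (a root-to-flower ratio of 9286, with a counting interval of 1666 to 366797, edgeR adjusted p = 0.0326). Of the 14 higher genes, 12 had root replicate 1 above root replicate 2, 7 of them by more than 3 times. Leaving out one library gave 10, 14, 1 and 4 higher and 2, 4, 3 and 3 lower.

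Beta-amylases, which release maltose from starch, went the other way. BAM1 (comp22774_c0) was at 67.9 and 72.9 CPM in root and 1487 and 1202 CPM in flower (log2 fold change -4.25 ± 0.61, edgeR adjusted p = 0.00759). BAM3 (comp23296_c0) was at 7.93 and 21.9 CPM in root and 311 and 395 CPM in flower (log2 fold change -4.56 ± 0.82, edgeR adjusted p = 0.0136). Both amylases were lower in each root library. The debranching enzyme ISA3 (comp22981_c0) was at 118 and 51.7 CPM in root and 451 and 352 CPM in flower (log2 fold change -2.24 ± 0.61, edgeR adjusted p = 0.0434), but it did not pass with total-count scaling. GWD1 (comp22742_c0), glucan water dikinase, which phosphorylates starch before its breakdown, was at 128 and 73.4 CPM in root and 257 and 411 CPM in flower (log2 fold change -1.73 ± 0.43, edgeR adjusted p = 0.0330) and did not pass with that scaling either. In these 4 genes the flower libraries were above the root libraries and the replicates of each tissue differed by less than 3-fold.

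Different sucrose-cleaving genes were high in root and in flower. SS (comp22513_c0), sucrose synthase, which yields UDP-glucose, was at 10829 and 2208 CPM in root and 175 and 144.8 CPM in flower (log2 fold change 5.35 ± 0.91, edgeR adjusted p = 0.0116). Its level was 130.2 CPM in leaf and 501 CPM in fruit (means of 2 libraries). Sucrose synthase was highest in root of the 4 tissues. Acid invertase INVA (comp22856_c0), which yields glucose and fructose, was at 4.27 and 16 CPM in root and 1002 and 547 CPM in flower (log2 fold change -6.26 ± 0.84, edgeR adjusted p = 0.00661). INV*DC4 (comp19275_c0), named for an invertase of carrot, was at 14.7 and 4.73 CPM in root and 199 and 249 CPM in flower (log2 fold change -4.53 ± 1.11, edgeR adjusted p = 0.0324). Both invertases were low in each root library and high in each flower library. CWINV1 (comp18790_c0), a cell wall invertase, was the reverse at 12.5 and 9.04 CPM in root and 0.824 and 0.509 CPM in flower (log2 fold change 3.99 ± 0.44, edgeR adjusted p = 0.00441). Over the sucrose list 3 of 34 tested genes passed as higher in root and 8 as lower (median -0.53; 4 and 5 with total counts, 2 and 8 without the length trend; with limma on log2(TPM + 1) its direction turned, at 7 higher and 5 lower). Counts with one library left out were 2, 3, 1 and 1 higher and 2, 3, 2 and 3 lower.

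Named sugar carriers were also found on both sides. SUC2 (comp11241_c0), a sucrose carrier, was at 102 and 89.3 CPM in root and 10.1 and 14.4 CPM in flower (log2 fold change 2.96 ± 0.43, edgeR adjusted p = 0.00789). SWEET16 (comp6218_c0) and SWEET1 (comp12083_c0), sugar channels of the SWEET family, were at 4.09 and 1.59 CPM and 6.15 and 6.51 CPM in root and at 215 and 168 CPM and 82.5 and 169 CPM in flower (log2 fold changes -6.08 ± 0.91 and -4.31 ± 0.70). Root libraries were the higher ones for the carrier and flower libraries for both channels. In the sugar transport list 2 of 29 tested genes passed as higher in root and 7 as lower (3 and 3 with total counts, 3 and 7 without the length trend, so that total counts left no direction). In the fits with one library fewer, 2, 2, 1 and 2 were higher and 1, 3, 2 and 5 lower.

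**Figure D4:**
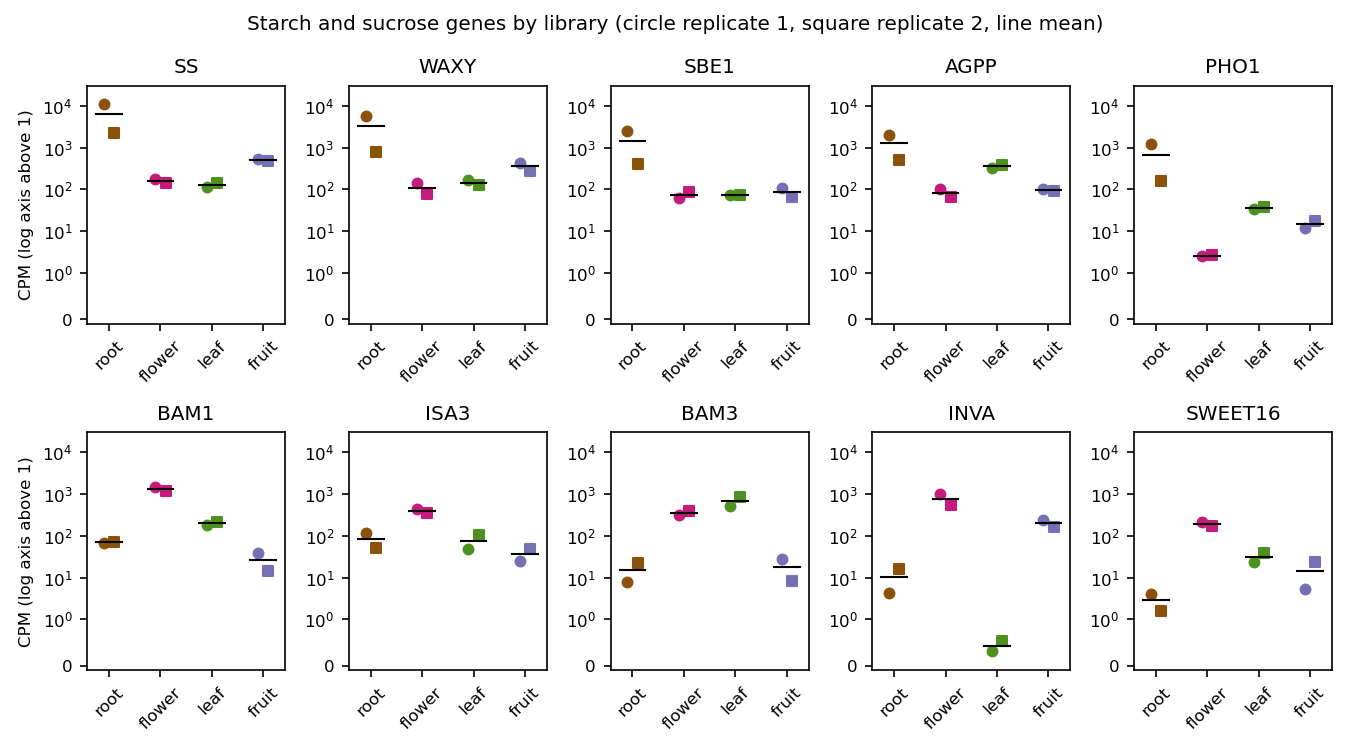
CPM (linear below 1, log above) of 10 starch and sucrose genes in root, flower, leaf and fruit, with circles for replicate 1, squares for replicate 2 and a line at the mean. The upper row holds genes higher in root than in flower, from sucrose synthase SS to starch phosphorylase PHO1, and the lower row those lower in root, from the amylase BAM1 to the sugar channel SWEET16.

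Fermentation genes that passed were all higher in root, and all had alcohol dehydrogenase in their description. Of alcohol dehydrogenases and genes with a pyruvate decarboxylase symbol, 7 of 24 tested genes passed as higher in root and 0 as lower (median 1.57; 10 and 0 with total counts, 8 and 0 without the length trend). The decarboxylases PDC1 (comp21661_c0) and PDC2 (comp20714_c0) did not pass (log2 fold changes 0.84 ± 0.46 and -0.17 ± 0.57). Besides ADH2, which carried most of the signal, ADH (comp19274_c0) was at 102 and 70.2 CPM in root and 13.5 and 5.26 CPM in flower (log2 fold change 3.19 ± 0.61, edgeR adjusted p = 0.0166). At1g32780 (comp18179_c0), also described as an alcohol dehydrogenase, was at 305 and 66.9 CPM in root and 12.8 and 15.9 CPM in flower (log2 fold change 3.69 ± 1.03, edgeR adjusted p = 0.0470). Root and flower libraries were apart in both genes. Omitting a single library gave 5, 4, 1 and 1 higher and 0 in each lower.

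Heat shock proteins, chaperones that hold or refold other proteins, were mostly higher in root where they passed, but none passed as higher without flower replicate 1. In this list 32 of 133 tested genes passed as higher in root and 4 as lower (median 1.09; 54 and 2 with total counts, 31 and 3 without the length trend). HSP18.1 (comp23098_c0), one of the small heat shock proteins, was at 5231 and 373 CPM in root and 2.87 and 1.30 CPM in flower (log2 fold change 10.38 ± 2.27, edgeR adjusted p = 0.0238). HSP70 (comp16710_c0) was at 2593 and 391 CPM in root and 0.0988 and 0.226 CPM in flower (log2 fold change 13.22 ± 1.66, edgeR adjusted p = 0.00564). HSP22 (comp18225_c0) was at 788 and 28 CPM in root and 0.0329 and 0 CPM in flower (a root-to-flower ratio of 18053, with a counting interval of 3240.0 to 713079, edgeR adjusted p = 0.0262). Of the 32 higher genes, 25 had root replicate 1 above root replicate 2 and 19 had it more than 3 times above, a gap found in 7.62% of all higher genes. Fits that lacked one library had 7, 27, 0 and 5 higher and 1, 6, 1 and 2 lower. On the flower side the heat stress factor HSFA3 (comp7479_c0) was at 1.80 and 3.86 CPM in root and 78 and 31 CPM in flower (log2 fold change -4.26 ± 0.65, edgeR adjusted p = 0.00871). The table describes comp11478_c0, of the heat shock symbol HSP26-A, as a glutathione S-transferase, an enzyme that conjugates toxic compounds, and it was not counted in this list. It was at 30594 and 1831 CPM in root and 174 and 119.6 CPM in flower (log2 fold change 6.79 ± 1.48, edgeR adjusted p = 0.0236).

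Laccases, copper enzymes that couple lignin and other phenols, were higher in root where they passed. Of these 8 of 14 tested genes passed as higher in root and 0 as lower (median 7.37; 10 and 0 with total counts, 9 and 0 without the length trend). The named members share the symbol LAC14 and a description as nitrite reductase, another copper enzyme. Of these, comp23139_c0 was at 238 and 99.5 CPM in root and 1.91 and 5.03 CPM in flower (log2 fold change 5.61 ± 0.70, edgeR adjusted p = 0.00564). The ID comp20550_c0 was at 185 and 17.5 CPM in root and 0 and 0.0565 CPM in flower (a root-to-flower ratio of 4522, with a counting interval of 812 to 178643, edgeR adjusted p = 0.00803). Both root libraries exceeded both flower libraries in each. Dropping one library gave 5, 6, 4 and 5 higher and 0 in each lower. The laccase with the highest mean CPM in flower, and also in root, was LAC14 (comp23236_c0), chosen after its values were seen. It was at 129.5 and 293 CPM in root and 1617 and 384 CPM in flower and did not pass (log2 fold change -2.24 ± 1.02, edgeR adjusted p = 0.163).

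Class III peroxidases, secreted haem enzymes of wall cross-linking, went both ways. Of this family 10 of 36 tested genes passed as higher in root and 8 as lower (median 2.68; 13 and 7 with total counts, 11 and 8 without the length trend). PER42 (comp23412_c0) was at 3623 and 1382 CPM in root and 9.62 and 106 CPM in flower (log2 fold change 5.44 ± 1.28, edgeR adjusted p = 0.0294), so the flower libraries were themselves more than 10-fold apart. PER52 (comp22959_c0) was at 101 and 68.5 CPM in root and 7.35 and 1.75 CPM in flower (log2 fold change 4.21 ± 0.86, edgeR adjusted p = 0.0199). Both genes were lower in each flower library than in either root library. On the flower side PER63 (comp11942_c0) was at 24.2 and 14.9 CPM in root and 144 and 122 CPM in flower (log2 fold change -2.77 ± 0.49, edgeR adjusted p = 0.0129). PER47 (comp17020_c0) was at 2.91 and 2.75 CPM in root and 62.4 and 31.4 CPM in flower (log2 fold change -4.05 ± 0.59, edgeR adjusted p = 0.00785). Each library left out gave 3, 5, 3 and 3 higher and 3, 2, 3 and 4 lower.

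Some defence genes were root genes and others flower genes. Of pathogenesis-related genes 7 of 47 tested genes passed as higher in root and 4 as lower (15 and 4 with total counts, 9 and 4 without the length trend). Over all genes tested 9.39% were higher and 11.2% lower. At2g14610 (comp11714_c0), named for the Arabidopsis PR1 gene, a marker of the salicylic acid response, was at 603 and 649 CPM in root and 0 and 0.170 CPM in flower (a root-to-flower ratio of 10058, with a counting interval of 3442 to 48774, edgeR adjusted p = 0.00295). PR-1 (comp14133_c0), of the same protein family, was at 186 and 81.4 CPM in root and 0.165 and 0 CPM in flower (log2 fold change 10.38 ± 1.39, edgeR adjusted p = 0.00653). Both PR1-type genes were abundant in root and nearly silent in flower. The snakin-type peptide SN1 (comp5815_c0) was at 0.688 and 0.239 CPM in root and 673 and 516 CPM in flower (log2 fold change -10.33 ± 1.02, edgeR adjusted p = 0.00382). The major latex-like protein MLP423 (comp18807_c0) was at 0.0405 and 0.0171 CPM in root and 1827 and 4238 CPM in flower (a flower-to-root ratio of 97690.5, with a counting interval of 33427 to 473717, edgeR adjusted p = 0.0214). Both of these lay on the flower side in every library. Another of the latex-like group, MLP34 (comp10902_c0), was at 1.58 and 1.01 CPM in root but at 6.16 and 2680.3 CPM in flower, where a single library held nearly all of it (log2 fold change -10.02 ± 2.59, edgeR adjusted p = 0.0383). After omission of one library, 3, 3, 2 and 1 were higher and 1, 2, 3 and 1 lower.

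Receptors and regulators of immunity that passed were mostly higher in root. Of NB-LRR genes, intracellular immune receptors, 6 of 27 tested genes passed as higher in root and 0 as lower (median 1.52; 8 and 0 with total counts, 7 and 0 without the length trend). RPPL1 (comp23193_c0) was at 74.8 and 185 CPM in root and 23.1 and 27.9 CPM in flower (log2 fold change 2.35 ± 0.51, edgeR adjusted p = 0.0234). N (comp23055_c0), of the tobacco N type, was at 28.7 and 40.8 CPM in root and 0.758 and 0 CPM in flower (log2 fold change 6.41 ± 1.38, edgeR adjusted p = 0.0227). The fits with one library left out gave 4, 3, 2 and 3 higher and 0 in each lower. Of WRKY factors, regulators of defence and senescence, 10 of 57 tested genes passed as higher in root and 1 as lower (median 1.52; 20 and 1 with total counts, 11 and 1 without the length trend). WRKY11 (comp25740_c0) was at 67.6 and 90.7 CPM in root and 4.65 and 2.26 CPM in flower (log2 fold change 4.51 ± 0.59, edgeR adjusted p = 0.00632). WRKY65 (comp14612_c0) was at 14.3 and 35.2 CPM in root and 3.03 and 1.24 CPM in flower (log2 fold change 3.52 ± 0.82, edgeR adjusted p = 0.0288). Both of these were higher in each root library than in either flower library. The 1 lower gene was WRKY19 (comp22729_c0), described as a kinase, at 1.09 and 1.16 CPM in root and 28.5 and 12.9 CPM in flower (log2 fold change -4.19 ± 0.71, edgeR adjusted p = 0.0114). Leaving out one library gave 7, 3, 4 and 5 higher and 0, 0, 0 and 1 lower. In the symbiosis list 7 of 31 tested genes passed as higher in root and 3 as lower (10 and 0 with total counts, 7 and 3 without the length trend). The chitin receptor-like kinase LYK4 (comp21111_c0) was at 41.3 and 45.4 CPM in root and 7.84 and 3.67 CPM in flower (log2 fold change 2.91 ± 0.49, edgeR adjusted p = 0.0113). The related LYK3 (comp21719_c0) was at 28.7 and 27.7 CPM in root and 84.1 and 119.7 CPM in flower (log2 fold change -1.85 ± 0.31, edgeR adjusted p = 0.0112). These related receptors lay on opposite sides. That list, drawn from GO terms too, also holds sucrose synthase and glucan water dikinase, described with sugar and starch. Counts with one library left out were 4, 6, 4 and 3 higher and 0, 1, 1 and 1 lower.

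**Figure D5:**
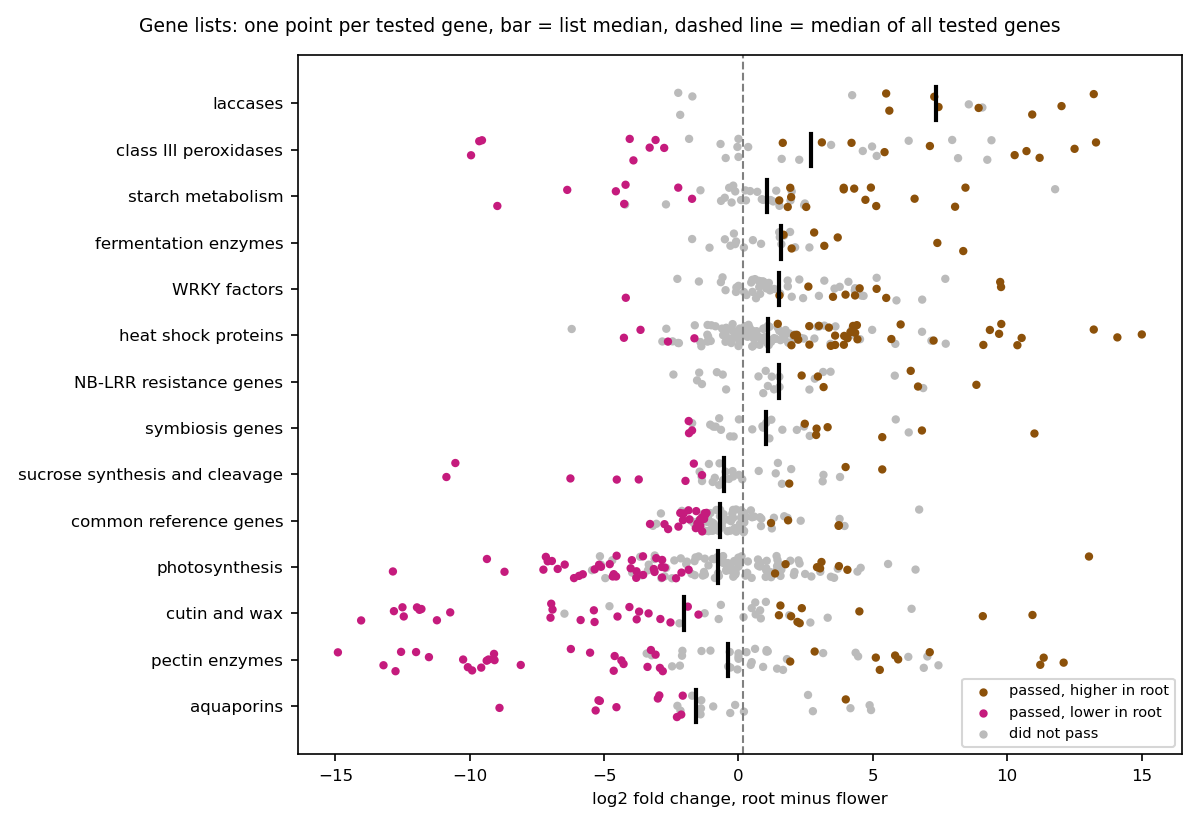
Log2 fold change of root minus flower for each tested gene of 14 lists, brown where it passed as higher in root, pink where it passed as lower and grey where it did not pass; black bars are list medians and the dashed line is the median of all genes tested (0.17). Medians run from 7.37 for laccases to -2.04 for cutin and wax genes.

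The cytosolic mevalonate pathway, which supplies sesquiterpenes, triterpenes and sterols, had different reductase IDs in root and flower. Of the list 4 of 12 tested genes passed as higher in root and 1 as lower (median 1.61; 6 and 1 with total counts, 5 and 1 without the length trend). HMG2 (comp7930_c0) and HMGR (comp7583_c0), both HMG-CoA reductases at the committed step, were at 76.6 and 85.3 CPM and 13 and 13.9 CPM in root and at 1.35 and 3.45 CPM and 0.461 and 0.283 CPM in flower (log2 fold changes 5.09 ± 1.10 and 5.14 ± 1.02). HMGR1 (comp24342_c0), of the same enzyme, was at 58.5 and 20.5 CPM in root and 485 and 505 CPM in flower (log2 fold change -3.65 ± 0.61, edgeR adjusted p = 0.0112). These 3 reductase IDs were divided between the tissues. HMG2 and HMGR were assembled at 537 and 288 bases, against 2241 for HMGR1. Whether the short IDs are pieces of the same transcript was not tested, so they may not be separate genes. Mvd (comp22355_c0), which decarboxylates mevalonate diphosphate, was at 126 and 202 CPM in root and 46.9 and 44.6 CPM in flower (log2 fold change 1.84 ± 0.45, edgeR adjusted p = 0.0318). In the fits with one library fewer, 0, 1, 0 and 0 were higher and 1, 1, 0 and 1 lower. The MEP pathway of plastids is the usual source of monoterpenes. Of its genes ISPF (comp15871_c0) passed as higher at 384 and 77.8 CPM in root and 35.2 and 22.7 CPM in flower (log2 fold change 2.99 ± 0.74, edgeR adjusted p = 0.0337), and the other 9 of 10 did not pass (3 and 0 with total counts, 1 and 0 without the length trend). Omitting a single library gave 0, 4, 0 and 0 higher and 1, 0, 0 and 0 lower. Prenyltransferases, which join isoprene units, had 0 of 9 higher and 3 lower (1 and 1 with total counts, 1 and 3 without the length trend, so that total counts left no direction). Fits that lacked one library had 0, 1, 0 and 0 higher and 2, 2, 3 and 2 lower. Among them GGR (comp20102_c0), described as a farnesyl diphosphate synthase, was at 3.06 and 7.46 CPM in root and 104 and 54.1 CPM in flower (log2 fold change -3.91 ± 0.58, edgeR adjusted p = 0.00817).

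Terpene synthases, which form the terpene skeletons, divided by gene. Of 17 tested 4 were higher and 2 lower (5 and 2 with total counts, 5 and 2 without the length trend). comp15294_c0, described as a 1,8-cineole synthase, was at 1758 and 186 CPM in root and 1.28 and 1.02 CPM in flower (log2 fold change 9.71 ± 1.40, edgeR adjusted p = 0.00785). VIT_19s0014g04930 (comp23214_c0), of the same description, was at 144.8 and 303 CPM in root and 0.692 and 2.20 CPM in flower (log2 fold change 7.30 ± 0.80, edgeR adjusted p = 0.00432). Root levels exceeded flower levels in every library for both. comp19097_c0, described alike, was the reverse at 0.0405 and 0.0342 CPM in root and 42.3 and 905 CPM in flower (log2 fold change -13.53 ± 2.02, edgeR adjusted p = 0.00838), with the flower libraries themselves far apart. Dropping one library gave 4, 4, 2 and 3 higher and 0, 1, 1 and 1 lower. 10HGO, the symbol of an alcohol dehydrogenase of monoterpenoid metabolism in Catharanthus that the table describes as mannitol dehydrogenase, was split too. Of its IDs comp22952_c0 was at 2312 and 785 CPM in root and 109.8 and 48 CPM in flower (log2 fold change 4.29 ± 0.86, edgeR adjusted p = 0.0187). The ID comp23420_c0 was at 271 and 285 CPM in root and 1988 and 1829.8 CPM in flower (log2 fold change -2.78 ± 0.47, edgeR adjusted p = 0.0118).

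Triterpene and sterol genes also passed in both directions. Of these 6 of 30 tested genes passed as higher in root and 4 as lower (7 and 3 with total counts, 6 and 5 without the length trend). CYP716B2 (comp23094_c0), of a family of triterpene oxidases, was at 181 and 401 CPM in root and 1.42 and 1.92 CPM in flower (log2 fold change 7.45 ± 0.87, edgeR adjusted p = 0.00470). OSCBPW (comp22869_c1), an oxidosqualene cyclase, was at 159 and 177 CPM in root and 15.4 and 1.64 CPM in flower (log2 fold change 4.30 ± 0.97, edgeR adjusted p = 0.0258). The sterol methyltransferase SMT2 (comp16099_c0), of membrane sterol synthesis, was at 60.7 and 47.7 CPM in root and 761 and 717 CPM in flower (log2 fold change -3.77 ± 0.43, edgeR adjusted p = 0.00450). The first of these genes was higher in root and the sterol enzyme in flower, in every library. Each library left out gave 4, 4, 2 and 4 higher and 2, 1, 1 and 1 lower. Monooxygenases by GO term that passed were more often higher in root, since 34 of 109 tested genes passed as higher in root and 7 as lower (44 and 4 with total counts, 35 and 7 without the length trend). After omission of one library, 25, 27, 10 and 15 were higher and 5, 5, 1 and 4 lower.

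Aquaporins, or water channels, that passed were mostly lower in root. Of this family 1 of 26 tested genes passed as higher in root and 10 as lower (median -1.57; 5 and 4 with total counts, 4 and 9 without the length trend, so that the direction turned with total counts). PIP1-3 (comp15843_c0), of the plasma membrane, was at 884 and 734 CPM in root and 7090.1 and 5870.2 CPM in flower (log2 fold change -3.002 ± 0.58, edgeR adjusted p = 0.0167). TIP2-1 (comp20819_c0), of the vacuole membrane, was at 183 and 55 CPM in root and 2698 and 2856 CPM in flower (log2 fold change -4.54 ± 0.72, edgeR adjusted p = 0.00976). Flower libraries were above root libraries in both genes, and the first did not pass with total-count scaling. The exception was NIP5-1 (comp20325_c0), which carries boric acid in Arabidopsis, at 94.5 and 459.5 CPM in root and 28.3 and 6.39 CPM in flower (log2 fold change 3.99 ± 1.04, edgeR adjusted p = 0.0393). The fits with one library left out gave 1, 0, 0 and 0 higher and 5, 5, 2 and 5 lower.

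Mineral transporters were called in both directions. In both lists counted here the shares were not far from those of all genes tested, 9.39% higher and 11.2% lower. Among phosphate, potassium and sulfate transporters 9 of 70 tested genes passed as higher in root and 7 as lower (15 and 4 with total counts, 10 and 6 without the length trend; 9 and 9 with median-ratio size factors). POT5 (comp8086_c0), a potassium carrier, was at 32.7 and 155 CPM in root and 0.593 and 0 CPM in flower (log2 fold change 8.14 ± 1.42, edgeR adjusted p = 0.0124). PHT2-1 (comp19296_c0), a phosphate carrier of plastids, was at 10.6 and 10.8 CPM in root and 97.9 and 95 CPM in flower (log2 fold change -3.17 ± 0.37, edgeR adjusted p = 0.00477). The first of these carriers was nearly silent in flower and the second was found in both tissues. Leaving out one library gave 10, 5, 3 and 4 higher and 4, 4, 3 and 5 lower. The nitrate carrier NRT2.4 (comp22908_c0), of the high-affinity type, was at 10.8 and 72.3 CPM in root and 1.58 and 2.60 CPM in flower (log2 fold change 4.32 ± 0.93, edgeR adjusted p = 0.0226). NRT1.3 (comp22561_c0) was at 0.850 and 4.90 CPM in root and 28.9 and 44.7 CPM in flower (log2 fold change -3.67 ± 0.82, edgeR adjusted p = 0.0249). The first of these nitrate genes was higher in root and the second in flower. Of metal transporters 5 of 66 tested genes passed as higher in root and 9 as lower (10 and 7 with total counts, 8 and 8 without the length trend, the first of which turned the direction and the second evened it). The manganese and iron carrier NRAMP1 (comp13465_c0) was at 19.3 and 11.7 CPM in root and 0.198 and 0 CPM in flower (log2 fold change 7.06 ± 1.004, edgeR adjusted p = 0.00759). The copper carrier COPT5 (comp7548_c0) was at 1.86 and 5.45 CPM in root and 153 and 104 CPM in flower (log2 fold change -5.13 ± 0.64, edgeR adjusted p = 0.00564). Counts with one library left out were 5, 5, 1 and 1 higher and 5, 4, 2 and 6 lower.

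Cutin and wax genes, which build the plant's surface, were more often lower than higher in root where they passed. In this list 9 of 50 tested genes passed as higher in root and 24 as lower (median -2.04; 12 and 18 with total counts, 7 and 24 without the length trend). CYP86A2 (comp22420_c0), which hydroxylates fatty acids for cutin, was at 0.324 and 0.239 CPM in root and 995 and 1275 CPM in flower (log2 fold change -11.97 ± 0.78, edgeR adjusted p = 0.00205). CER1 (comp22878_c0), needed for wax alkanes, was at 0.202 and 0.530 CPM in root and 848 and 1802 CPM in flower (log2 fold change -11.80 ± 1.29, edgeR adjusted p = 0.00432). ABCG12 (comp22608_c0), a wax exporter, was at 0.182 and 0.0342 CPM in root and 863 and 707 CPM in flower (log2 fold change -12.82 ± 1.58, edgeR adjusted p = 0.00540). All 3 were nearly silent in both root libraries and abundant in both flower libraries. In the fits with one library fewer, 3, 7, 2 and 2 were higher and 17, 20, 18 and 18 lower. The suberin hydroxylase CYP86A1 (comp13388_c1), which makes the root counterpart of cutin, was at 1.56 and 9.46 CPM in root and 0 in flower (at least 93.6-fold higher in root, edgeR adjusted p = 0.0352). It alone passed among 8 Casparian strip and suberin genes tested, and it did not pass in any fit with one library left out.

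Named fatty acid desaturases shared this direction. In the KEGG pathway of unsaturated fatty acids 1 of 30 tested genes passed as higher in root and 8 as lower (3 and 6 with total counts, 3 and 9 without the length trend). FAD7 (comp11227_c0), the omega-3 desaturase of plastids, was at 8.28 and 5.91 CPM in root and 953 and 536 CPM in flower (log2 fold change -6.71 ± 0.59, edgeR adjusted p = 0.00304). ADS3 (comp18341_c0) was at 0 in root and 94.1 and 103 CPM in flower (at least 3498-fold lower in root, edgeR adjusted p = 0.00564). Omitting a single library gave 1, 1, 1 and 1 higher and 5, 6, 5 and 6 lower. Both desaturases were far higher in each flower library. The 1 gene higher in root was fabG (comp20936_c0), described as a reductase of fatty acid synthesis, at 974 and 687 CPM in root and 18.8 and 17.2 CPM in flower (log2 fold change 5.53 ± 0.55, edgeR adjusted p = 0.00382).

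Pectin enzymes, which modify the gel between wall fibres, were more often lower than higher among those that passed. Of these 10 of 69 tested genes passed as higher in root and 26 as lower (median -0.39; 15 and 25 with total counts, 12 and 27 without the length trend). The pectate lyase At1g04680 (comp21649_c0) was at 35.3 and 43.1 CPM in root and 1943 and 1665 CPM in flower (log2 fold change -5.52 ± 0.85, edgeR adjusted p = 0.00923). The pectinesterase PME34 (comp22437_c0) was at 162 and 83.1 CPM in root and 1319 and 1025 CPM in flower (log2 fold change -3.26 ± 0.62, edgeR adjusted p = 0.0164). Root also had its own members. The polygalacturonase At1g48100 (comp5132_c0) was at 207 and 565 CPM in root and 0.0659 and 0.113 CPM in flower (log2 fold change 12.10 ± 0.96, edgeR adjusted p = 0.00287). The pectinesterase PME47 (comp21280_c0) was at 482 and 94.3 CPM in root and 0 and 0.283 CPM in flower (log2 fold change 11.23 ± 2.31, edgeR adjusted p = 0.0202). Fits that lacked one library had 6, 7, 6 and 4 higher and 15, 15, 10 and 13 lower. Expansins and xyloglucan enzymes had 4 of 47 higher and 14 lower (8 and 12 with total counts, 6 and 12 without the length trend). EXPB2 (comp10502_c0), of the beta-expansin family, was at 25.7 and 36.2 CPM in root and 0 in flower (at least 503-fold higher in root, edgeR adjusted p = 0.00382). Dropping one library gave 4, 3, 2 and 2 higher and 7, 7, 4 and 4 lower.

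Respiratory subunits that passed were mostly lower in root, but few kept their call on another scale. In the KEGG pathway of oxidative phosphorylation, picked after its values were seen, 2 of 161 tested genes passed as higher in root and 53 as lower (median -1.12; 10 and 7 with total counts, 3 and 26 without the length trend, so that total counts turned the direction). Each library left out gave 1, 2, 0 and 2 higher and 23, 17, 14 and 25 lower. By GO term, complex I of the respiratory chain had 13 of 21 lower and none higher (4 lower with the length trend removed and 0 with total-count scaling). After omission of one library, 0 in each were higher and 8, 4, 2 and 9 lower. The cytochrome oxidase subunit COX6B-3 (comp7921_c0) was at 23.5 and 28.6 CPM in root and 268 and 218 CPM in flower (log2 fold change -3.22 ± 0.32, edgeR adjusted p = 0.00382), and it passed on both other scales. At3g18410 (comp5747_c0), named for an Arabidopsis subunit of complex I, was at 176 and 127 CPM in root and 729 and 567 CPM in flower (log2 fold change -2.10 ± 0.41, edgeR adjusted p = 0.0172), and it passed on neither, at a log2 fold change of -1.31 with the length trend removed.

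Genes named for the alternative oxidase and for an uncoupling protein were also higher in flower. AOX1A (comp22036_c0), the alternative oxidase, which passes electrons to oxygen without pumping protons, was at 0.0809 and 1.93 CPM in root and 659 and 1138 CPM in flower (log2 fold change -9.79 ± 1.63, edgeR adjusted p = 0.0111). PUMP5 (comp19463_c0), a mitochondrial carrier named for uncoupling proteins, was at 65.9 and 91.8 CPM in root and 2170.5 and 1597 CPM in flower (log2 fold change -4.58 ± 0.78, edgeR adjusted p = 0.0117). Both were higher in each flower library than in either root library, and with the length trend removed their log2 fold changes were -9.69 and -4.50. AVP1 (comp7277_c0), a pyrophosphate-driven proton pump of the vacuole, was on the root side at 2779.7 and 2191 CPM in root and 377 and 405 CPM in flower (log2 fold change 2.67 ± 0.50, edgeR adjusted p = 0.0157). Subunits of the ATP-driven vacuolar pump were on the flower side, at 11 of 21 lower and none higher in the KEGG entry that holds them (7 with the length trend removed and 1 with total-count scaling). The fits with one library left out gave 0 in each higher and 3, 5, 3 and 5 lower. The stalk subunit VATE (comp13745_c0) was at 67.5 and 82.8 CPM in root and 272 and 206 CPM in flower (log2 fold change -1.67 ± 0.32, edgeR adjusted p = 0.0170).

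Vesicle traffic leaned the same way and lost calls on the same scales. Of SNARE proteins, which fuse vesicles with membranes, 3 of 44 tested genes passed as higher in root and 13 as lower (4 and 5 with total counts, 3 and 9 without the length trend, so that total counts nearly evened it). Leaving out one library gave 1, 1, 0 and 0 higher and 3, 5, 2 and 4 lower. Small GTPases by GO term had 2 of 84 higher and 26 lower (8 and 6 with total counts, 7 and 13 without the length trend, so that total counts turned the direction). Counts with one library left out were 0, 0, 1 and 0 higher and 7, 11, 9 and 12 lower. ARF (comp7343_c0), an Arf-type GTPase of vesicle budding, was at 129.6 and 121 CPM in root and 546 and 620.2 CPM in flower (log2 fold change -2.22 ± 0.37, edgeR adjusted p = 0.0110). The cytokinesis syntaxin KN (comp15290_c0), named for KNOLLE, was at 3.50 and 3.74 CPM in root and 0 in flower (at least 58.2-fold higher in root, edgeR adjusted p = 0.0492).

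DNA replication genes that passed were mostly higher in root. In the KEGG pathway 20 of 69 tested genes passed as higher in root and 3 as lower (median 1.86; 32 and 0 with total counts, 26 and 1 without the length trend). mcm2 (comp19831_c0), a subunit of the replicative helicase, was at 53.5 and 20.7 CPM in root and 0.395 and 0.509 CPM in flower (log2 fold change 6.36 ± 0.85, edgeR adjusted p = 0.00652). PCNA (comp18715_c0), the sliding clamp of DNA polymerase, was at 46.7 and 26.9 CPM in root and 4.71 and 0.904 CPM in flower (log2 fold change 3.69 ± 0.92, edgeR adjusted p = 0.0347). RNR1 (comp22686_c0), a subunit of the enzyme that makes deoxynucleotides, was at 54.8 and 27.9 CPM in root and 4.71 and 4.35 CPM in flower (log2 fold change 3.19 ± 0.50, edgeR adjusted p = 0.00970). Each of these genes was higher in both root libraries than in either flower library. In the fits with one library fewer, 2, 9, 2 and 5 were higher and 1, 1, 0 and 1 lower. Histones had 12 of 81 higher and 7 lower (23 and 3 with total counts, 18 and 3 without the length trend), with HTR2 (comp21711_c0), a histone H3, at 270.0 and 124 CPM in root and 15.2 and 10.7 CPM in flower (log2 fold change 3.92 ± 0.82, edgeR adjusted p = 0.0208). Omitting a single library gave 7, 5, 4 and 4 higher and 3, 3, 3 and 4 lower. In the cell cycle list 19 of 108 tested genes passed as higher in root and 5 as lower (34 and 4 with total counts, 16 and 6 without the length trend). CYCU4-1 (comp8106_c0), a cyclin, was at 0.587 and 1.28 CPM in root and 377 and 363 CPM in flower (log2 fold change -8.62 ± 0.59, edgeR adjusted p = 0.00205). Fits that lacked one library had 4, 9, 2 and 5 higher and 4, 4, 5 and 4 lower.

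Nuclear pore and RNA genes showed many small differences. NUP98 (comp14264_c0), a nuclear pore protein, was at 136 and 90.8 CPM in root and 40.4 and 43.4 CPM in flower (log2 fold change 1.44 ± 0.33, edgeR adjusted p = 0.0272). TRN1 (comp19382_c0), a nuclear import receptor by its symbol, was at 69.8 and 68.1 CPM in root and 21.7 and 30.7 CPM in flower (log2 fold change 1.40 ± 0.30, edgeR adjusted p = 0.0216). With the length trend removed their log2 fold changes were 0.91 and 0.69 and neither passed. RH7 (comp15389_c0), an RNA helicase, kept a wider gap at 319 and 271 CPM in root and 31.7 and 26.6 CPM in flower (log2 fold change 3.34 ± 0.40, edgeR adjusted p = 0.00510; 2.83 with the length trend removed). By GO term helicases had 19 of 59 higher and none lower (29 and 0 with total counts, 14 and 0 without the length trend). Dropping one library gave 2, 6, 0 and 9 higher and 0 in each lower. For the class of nuclear structure, the counts were 38 and 0 with total counts, 20 and 0 without the length trend. Each library left out gave 6, 14, 4 and 8 higher and 0 in each lower. For RNA processing they were 228 and 4 with total counts, 104 and 21 without the length trend. After omission of one library, 21, 38, 15 and 41 were higher and 4, 7, 4 and 10 lower.

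Ribosomal proteins, of the cytosol and of organelles, had no direction that held across scales. Of these 11 of 357 tested genes passed as higher in root and 28 as lower (median -0.12), but 31 and 7 with total counts, 38 and 7 without the length trend. The fits with one library left out gave 0, 8, 3 and 0 higher and 5, 4, 4 and 11 lower. Genes often used as references for expression, such as tubulins, actins and ubiquitin enzymes, had 4 of 95 higher and 20 lower (median -0.69; 7 and 3 with total counts, 6 and 9 without the length trend, so that total counts turned the direction). Leaving out one library gave 1, 1, 0 and 0 higher and 3, 5, 1 and 8 lower. The tubulin TUBA1 (comp23929_c0) was at 67.1 and 43.3 CPM in root and 232 and 288 CPM in flower (log2 fold change -2.24 ± 0.42, edgeR adjusted p = 0.0153). The ID comp21541_c0, described as an actin, was at 4.92 and 5.04 CPM in root and 2373 and 2500.4 CPM in flower (log2 fold change -8.93 ± 1.03, edgeR adjusted p = 0.00460).

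Hormone genes were called in both directions. In the auxin list 40 of 268 tested genes passed as higher in root and 53 as lower (71 and 38 with total counts, 40 and 45 without the length trend, so that total counts turned the direction). IAA14 (comp11401_c0), a repressor of auxin response, was at 5.00 and 1.43 CPM in root and 3957 and 2577 CPM in flower (log2 fold change -9.99 ± 0.96, edgeR adjusted p = 0.00362). The auxin exporter PIN3 (comp20617_c0) was at 31.7 and 35.9 CPM in root and 467.8 and 467 CPM in flower (log2 fold change -3.79 ± 0.50, edgeR adjusted p = 0.00636). Both of these were far higher in each flower library. The auxin receptor TIR1 (comp7077_c0) was at 59.9 and 105 CPM in root and 12.5 and 13.8 CPM in flower (log2 fold change 2.65 ± 0.52, edgeR adjusted p = 0.0172). Counts with one library left out were 13, 22, 6 and 10 higher and 25, 30, 20 and 29 lower. Of gibberellin genes 16 of 76 tested genes passed as higher in root and 8 as lower (27 and 6 with total counts, 17 and 8 without the length trend). GASA14 (comp5676_c0), a gibberellin-regulated peptide, was at 4785 and 392 CPM in root and 37.3 and 8.65 CPM in flower (log2 fold change 6.82 ± 1.68, edgeR adjusted p = 0.0330). GASA9 (comp23816_c0) of the same family was at 1.42 and 1.62 CPM in root and 228 and 262 CPM in flower (log2 fold change -7.33 ± 0.46, edgeR adjusted p = 0.00205). These related peptides lay on opposite sides. In the fits with one library fewer, 10, 9, 5 and 7 were higher and 4, 6, 3 and 4 lower. The cytokinin hydroxylase CYP735A1 (comp20207_c0), which makes trans-zeatin, the form known from root xylem, was at 131 and 382 CPM in root and 1.68 and 0.113 CPM in flower (log2 fold change 8.10 ± 1.32, edgeR adjusted p = 0.0104).

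Ethylene and abscisic acid genes were also called in both directions. The ethylene signalling factors EIN3 (comp22038_c0) and EIL1 (comp21874_c0) were at 52.6 and 77.9 CPM and 160.1 and 147 CPM in root and at 21.3 and 15.3 CPM and 48.4 and 34.4 CPM in flower (log2 fold changes 1.84 ± 0.34 and 1.89 ± 0.39). EBF1 (comp16294_c0), of the same list, was at 141 and 97.7 CPM in root and 43.4 and 31.4 CPM in flower (log2 fold change 1.67 ± 0.35, edgeR adjusted p = 0.0214). It did not pass with the length trend removed. Genes described as ACC synthases, the enzymes of the ethylene precursor, passed in both directions. The description alone does not show that each of them has this activity. ACS1 (comp20473_c0) was at 6.56 and 5.79 CPM in root and 41 and 31.1 CPM in flower (log2 fold change -2.55 ± 0.36, edgeR adjusted p = 0.00763). ACS10 (comp21011_c0), chosen after its values were seen, was the reverse at 42.5 and 26.8 CPM in root and 4.25 and 2.15 CPM in flower (log2 fold change 3.43 ± 0.45, edgeR adjusted p = 0.00629). In the ethylene list 7 of 31 tested genes passed as higher in root and 3 as lower (13 and 3 with total counts, 6 and 3 without the length trend). Omitting a single library gave 2, 4, 1 and 2 higher and 3, 2, 3 and 2 lower. NCED3 (comp13815_c0), which makes the precursor of abscisic acid, was at 3.68 and 0.256 CPM in root and 147 and 78.5 CPM in flower (log2 fold change -5.84 ± 1.58, edgeR adjusted p = 0.0431). CYP707A2 (comp21928_c0), which breaks that hormone down, was at 0 in root and 91.1 and 93 CPM in flower (at least 3303-fold lower in root, edgeR adjusted p = 0.00283). These genes of synthesis and breakdown were both lower in root. The receptor PYL8 (comp7534_c0) was at 159.7 and 147 CPM in root and 45.4 and 33.5 CPM in flower (log2 fold change 1.96 ± 0.34, edgeR adjusted p = 0.0120). In the abscisic acid list 2 of 37 tested genes passed as higher in root and 4 as lower (9 and 4 with total counts, 5 and 5 without the length trend, the first of which turned the direction and the second evened it). Its share higher was below the 9.39% of all genes tested, and its share lower was close to their 11.2%. Fits that lacked one library had 2, 2, 1 and 1 higher and 2, 2, 1 and 2 lower.

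Transcription factor families divided between the tissues. Homeobox factors had 14 of 51 higher and 15 lower (20 and 9 with total counts, 18 and 13 without the length trend, both of which put more genes on the root side). ATHB-14 (comp10570_c0) and ATHB-15 (comp21923_c0), class III homeodomain-zipper factors of vascular tissue, were at 111 and 66.7 CPM and 99.1 and 59.9 CPM in root and at 11.2 and 11.3 CPM and 7.41 and 11.4 CPM in flower (log2 fold changes 2.98 ± 0.40 and 3.08 ± 0.44). HAT4 (comp20201_c0), a class II factor of shade response, was at 4.51 and 6.25 CPM in root and 165 and 124 CPM in flower (log2 fold change -4.75 ± 0.50, edgeR adjusted p = 0.00395). Both class III genes were higher and the class II gene lower in root. Dropping one library gave 8, 7, 3 and 6 higher and 7, 12, 4 and 6 lower. Of MADS-box genes, SOC1 (comp25395_c0) and SVP (comp10418_c0), both known as regulators of flowering time, were higher in root at 45.3 and 66.9 CPM and 19.1 and 20.04 CPM, against 6.26 and 4.35 CPM and 0 and 0.170 CPM in flower (log2 fold change 3.40 ± 0.40; a root-to-flower ratio of 314, with a counting interval of 107 to 1524). Named YABBY factors, which mark the outer face of lateral shoot organs, were on the flower side. YAB2 (comp7550_c0) was at 0 in root and 34 and 27.7 CPM in flower (at least 1139.9-fold lower in root, edgeR adjusted p = 0.00205). YAB5 (comp7727_c0) was at 0.0405 and 0 CPM in root and 68.5 and 27.9 CPM in flower (a flower-to-root ratio of 2891, with a counting interval of 799 to 23881, edgeR adjusted p = 0.00446). Among bHLH factors 16 of 69 tested genes passed as higher in root and 10 as lower (18 and 6 with total counts, 16 and 9 without the length trend). BHLH30 (comp13812_c0) was at 54.2 and 121 CPM in root and 0.922 and 0.791 CPM in flower (log2 fold change 6.66 ± 0.66, edgeR adjusted p = 0.00382). BHLH135 (comp8132_c0) was at 0.324 and 0.102 CPM in root and 425 and 437 CPM in flower (log2 fold change -10.98 ± 1.56, edgeR adjusted p = 0.0100). The first of these bHLH genes was nearly silent in flower and the second in root. Each library left out gave 10, 14, 7 and 9 higher and 7, 7, 5 and 6 lower. The hypoxia-related ERF factor RAP2-3 (comp20336_c0) was at 157 and 97.2 CPM in root and 0.428 and 0.170 CPM in flower (log2 fold change 8.65 ± 0.97, edgeR adjusted p = 0.00446).

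Most photosynthesis genes that passed were lower in root, and the flower levels of those named were themselves far below leaf. Of these 8 of 144 tested genes passed as higher in root and 36 as lower (median -0.75; 16 and 19 with total counts, 9 and 28 without the length trend). RBCS (comp23363_c0), the small subunit of Rubisco, was at 1.5 and 3.43 CPM in root and 287 and 425 CPM in flower (log2 fold change -7.17 ± 1.10, edgeR adjusted p = 0.00899), with 31438 CPM in leaf. PSBR (comp7009_c0), of photosystem II, was at 0.263 and 6.95 CPM in root and 679 and 430.0 CPM in flower (log2 fold change -7.26 ± 1.62, edgeR adjusted p = 0.0251), with 5829 CPM in leaf. Root replicate 2 was the higher root library in both genes. After omission of one library, 1, 6, 3 and 2 were higher and 19, 39, 11 and 16 lower. CHLH (comp20946_c0), a magnesium chelatase subunit of chlorophyll synthesis, was at 1.36 and 0.957 CPM in root and 87.4 and 187 CPM in flower (log2 fold change -6.89 ± 0.70, edgeR adjusted p = 0.00385).

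Further changes on the flower side concerned amino acid and membrane precursors. TSA1 (comp22766_c1), a subunit of tryptophan synthase, was at 22.8 and 23.7 CPM in root and 1606 and 2046 CPM in flower (log2 fold change -6.30 ± 0.48, edgeR adjusted p = 0.00267), with 25.9 CPM in leaf and 22.2 CPM in fruit. INPS1 (comp13978_c0), which makes inositol phosphate, was at 3.04 and 19.4 CPM in root and 886 and 785 CPM in flower (log2 fold change -6.22 ± 1.03, edgeR adjusted p = 0.0110). The serine carboxypeptidase-like protein SCPL25 (comp21434_c0) was at 0.162 and 0.512 CPM in root and 1046 and 973 CPM in flower (log2 fold change -11.52 ± 0.79, edgeR adjusted p = 0.00205). All 3 had both flower libraries above both root libraries. On the root side EMB3004 (comp20267_c0), of the shikimate pathway, was at 473 and 85.4 CPM in root and 8.24 and 13.7 CPM in flower (log2 fold change 4.67 ± 1.23, edgeR adjusted p = 0.0404).

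The anther and tapetum list had no gene that passed. Most of its IDs have the symbols RPK2, EXS or BRI1, and many were also found in leaf and fruit. It is thus not a list of genes particular to the anther. Of 26 genes tested none was higher or lower with edgeR, 6 had an unadjusted p under 0.05, and DESeq2 called 3 higher and 0 lower. Numbers higher and lower were 4 and 0 with total counts, 2 and 0 without the length trend. This does not show that root and flower were alike in anther genes, since 2 of 5 IDs with the anther symbol SF3 passed as lower in root. These were comp14862_c0, at 0 in root and 17.8 and 10 CPM in flower, and comp12409_c0, at 0 in root and 2.83 and 3.62 CPM in flower.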

How the data were processed

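Root, flower, leaf and fruit of Paeonia lactiflora were sequenced from poly(A) RNA, with paired-end reads on a HiSeq 2000, per the labels' protocols. The authors deposited estimated counts, TPM and RPKM for assembled genes, per the file headers. The sources used here do not name the assembler, aligner or counter. RPKM values were not used. No per-sample column was left unmapped and no 2 libraries held identical values.

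Estimated counts, at least 98% of them whole in each library, were rounded. Genes kept by edgeR's filter by tissue (27939 of 30177) entered a quasi-likelihood fit over all 8 libraries (edgeR 4.0.16, R 4.3.3) with TMM scaling, tissue as the only term and Benjamini-Hochberg adjustment over all genes tested. A gene passed at an adjusted p under 0.05 and a log2 fold change of 1 or more in size. The design left 4 residual degrees of freedom, and the common biological coefficient of variation was 0.667. The fit was tested on simulated data. Where a tissue had no count, folds are lower bounds against 3 counts over that tissue; with 1 to 3 counts a ratio has an exact 95% interval that covers counting error only.

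Genes were named by rank: per direction, the 3 most abundant of each list and the 2 most abundant of each term discussed that passed, the 10 largest fold changes at 10 CPM or more, and the 10 most abundant with a log2 fold change of 2 or more in size, the last 3 kinds with a symbol. The members and lists were chosen with earlier results of these data known, and clear wrong-family matches were removed from lists by symbol, description or GO term after their values were seen. Lists were matched by symbol, description and GO term, so some members may still belong to other families. Alternatives included limma 3.58.1 on the deposited TPM and DESeq2 1.42.0. Since cultivation and pooling are not described beyond biological replicates, p-values cover only the spread between these libraries, which may be technical. Sequences were not used here.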

Additional observations from a re-analysis of the deposited data

How the results depend on the processing

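Against 2624 genes higher and 3120 lower in root, total-count scaling gave 5292 and 1525, totals without the 20 most abundant genes 4614 and 1922, and limma on log2(TPM + 1) 6323 and 1953. Root and flower libraries alone gave 1052 and 1762, a test against a log2 fold change of 1 gave 1299 and 1781, and DESeq2 gave 4143 and 4530. Leaving out one library at a time gave 486 to 1871 higher and 969 to 2503 lower. Median-ratio size factors, both other filters on low counts and removal of the TAR1-A IDs stayed within 1.5 times of both counts, and so did removal of the length trend, chosen after seeing the data. The cause of the other shifts was not tested. A fit with replicate number as a block gave 2333 higher and 3021 lower; of the named genes it left 417 with the same call and 38 short of it. Same-numbered libraries deviated together in root and flower (r = 0.384), flower and leaf (r = 0.489) and root and leaf (r = 0.436), weakly in leaf and fruit (r = 0.101), and not in flower and fruit (r = -0.037) or root and fruit (r = -0.156). The labels tie the numbers to no shared plant or batch, so the numbers were not taken to pair the samples. Fruit came from another period, so its pairs cannot show whether root, flower and leaf share plants or a batch. That was not tested. Of 455 named genes, 401 kept direction and call with the length trend removed, 371 with total-count scaling and 267 with root and flower libraries alone. Each fit without a root or flower library kept fewer of them than total-count scaling did. BIG (comp18296_c0) turned to a log2 fold change of -0.14 with the length trend removed, and PAL (comp23045_c0) to 0.21 with limma on TPM. Of the 4 root and flower libraries, leaving out flower replicate 1 cost the most calls.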
